A study of Mus musculus with 18 samples.

Results

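The solute carrier (Slc) genes described here are the 189 protein-coding genes whose mouse symbol starts with Slc and a digit and whose counts over 18 libraries sum to at least 1800, an average of 100 per library. The deposited table holds 370 protein-coding Slc genes among 39017 genes. Of these, 173 lay below the minimum sum. Among the 173, 34 were listed at 0 in every library. Another 8 genes above the minimum were left out by name, namely 3 handling iron (Slc11a1, Slc11a2 and Slc40a1), 4 markers of neurons or astrocytes (Slc1a2, Slc1a3, Slc32a1 and Slc17a6) and the microglial fructose carrier Slc2a5, and a ninth name on that list, Slc6a11, was below the minimum. Just inside the minimum were Slc15a2, Slc30a3 and Slc35f3, with 1801, 1831 and 1969 counts, and just outside it were Slc9a7, Slc30a10 and Slc5a5, with 1670, 1666 and 1626. The rule uses names and summed counts. Why genes are listed at 0 is not known from the sources used here. A 0 need not mean that a gene is not expressed.

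RNA labelled as spinal cord microglia was sequenced from female mice labelled WT that carry Tmem119-Cre and RiboTag, in which Cre from the microglial gene Tmem119 switches on an epitope tag on a ribosomal protein. The groups, of 6 libraries each, were healthy mice with control treatment, control-treated mice with EAE (experimental autoimmune encephalomyelitis, in which immune attack on myelin models multiple sclerosis), and EAE mice given metformin, an antidiabetic drug that acts on mitochondrial respiration. The labels name total RNA, describe no pull-down of tagged ribosomes, and give no age, dose or time. The series concerns deletion of the X-linked gene Kdm6a in microglia, but none of these 18 libraries is labelled as carrying that deletion.

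Solute carriers are membrane proteins that move small molecules by facilitated diffusion, by exchange of one solute for another, or by coupling to a sodium or proton gradient. They set which amino acids, sugars, nucleosides, vitamins, metals and ions enter and leave the cell and its lysosomes, mitochondria, endoplasmic reticulum and Golgi apparatus. In microglia and macrophages they feed glycolysis, nitric oxide and glutathione synthesis, and export what phagocytosis releases in lysosomes. Many work with a partner chain, such as Slc3a2 for the Slc7 light chains and basigin (Bsg) for the lactate carriers.

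Libraries held 46.2 to 58.3 M gene counts. The 189 genes took 1.06 to 1.19% of counts in healthy, 0.704 to 0.867% in control EAE and 0.930 to 1.12% in metformin EAE libraries. Apoe alone took 0.216 to 0.551% of healthy and 11.3 to 16.5% of control EAE counts, so levels are given as CPM, counts per M of library size after TMM scaling, which adjusts each library for such a shift. Scaling by library totals alone moves the median log2 change of all genes by -0.42 in control EAE against healthy, by 0.22 in metformin against control EAE and by -0.20 in metformin EAE against healthy. Metformin replicate 22 stood apart from its group and beside the healthy libraries: Apoe took 0.834% of its counts against 6.71 to 9.24% in the other 5 metformin libraries, and the main counts and changes with metformin are therefore also given without it. Control EAE replicate 10 stood apart on the second principal component (-79.3, the other 17 libraries -21.1 to 43.4). Genes of the mitochondrial genome took 0.643 to 0.714% of counts in 4 healthy libraries and 0.236 and 0.238% in healthy replicates 3 and 4. The share was 0.0774 to 0.177% in control EAE, 0.184 to 0.305% in 5 metformin libraries and 0.884% in replicate 22. Its part in the results was not tested.

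Of 6 microglial markers, Tmem119, P2ry12, Cx3cr1 and Csf1r were present and Trem2 and Aif1 were listed at 0. Their summed level was 13490 to 15830 CPM in healthy, 2681 to 4738 in control EAE, 5579 to 9046 in 5 metformin libraries and 13760 in replicate 22. All 4 tested fell in control EAE against healthy. Markers of other cells were also present. The 12 neuron markers summed to 722 to 1000 CPM in healthy, 264 to 446 in control EAE, 344 to 472 in 5 metformin libraries and 1054 in replicate 22, and all 12 fell in control EAE. The 8 markers of monocyte-derived cells, 5 of 6 tested higher in EAE, summed to 640 to 1443, 12160 to 31130, 9967 to 20500 and 1230 CPM in the same order, most of it from Lyz2, while the defining Ccr2 stood at 1.16 ± 0.428 CPM in healthy and 0.846 ± 0.496 CPM in control EAE. Border macrophage markers summed to 0.222 to 1.14 CPM in healthy and 47.9 to 83.9 in control EAE. Most of the latter came from Ms4a7 (mean 56.2 CPM in control EAE), against 1.13 for Mrc1 and 0.0879 for Lyve1. Mean Cd163 was 0.117 CPM in healthy and 0.0596 in control EAE, and Pf4 was listed at 0. Only 2 of these 5 markers were tested, and both rose. Fibroblast and mural markers summed to 16.1 to 86.2 and 370 to 829 CPM (6 of 7 higher, 1 lower). Endothelial markers summed to 9.77 to 26.4 and 62.4 to 143 CPM (4 of 6 higher, 1 lower), in control EAE mostly from Flt1 (mean 84.6 CPM).

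Of the other lists, 5 of 7 oligodendrocyte markers fell in control EAE, at summed levels of 3383 to 3848 CPM in healthy and 2704 to 3425 CPM in control EAE. Oligodendrocyte precursor markers split into 2 higher and 4 lower of 6, and astrocyte markers into 2 higher and 2 lower of 7, with sums of 327 to 355 and 351 to 409 CPM. All 4 T cell markers tested and both neutrophil markers tested rose from sums of at most 0.344 and 0.103 CPM to 1.60 to 6.32 and 2.68 to 8.29 CPM. Of 2 erythroid markers tested 1 fell. These libraries are bulk RNA, in which fewer cells of a type and less RNA per cell cannot be told apart, and the part of other cells in the changes below was not tested. Whether the replicates came from separate animals is not stated in the labels, so the tests reflect variation among libraries, which may be technical, and PCR-amplified reads without molecular identifiers are not independent molecules.

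The 189 genes summed to 8993, 9400 and 11025 CPM (lowest, median and highest library, the order used for all library values below) in healthy, 7359, 9600 and 10373 CPM in control EAE and 9490, 9777 and 10347 CPM in metformin EAE libraries, so the groups overlap in their sum. The mean level of a member ranged from 1.54 to 586 CPM in healthy libraries with a median of 24.5 CPM, and from 1.25 to 460.1 CPM in control EAE with a median of 24.2 CPM. Divided by exon length, the highest member in healthy libraries was the neutral amino acid exchanger Slc7a8, at 117 CPM per kb, followed by the lysosomal nucleoside carrier Slc29a3 at 92.7, the amino acid carrier heavy chain Slc3a2 at 76.3 and the mitochondrial ADP/ATP carrier Slc25a5 at 71.8 CPM per kb. In both EAE groups the highest was Slc25a5, at 89.6 CPM per kb in control EAE and 95.01 in metformin EAE.

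The first comparison, control EAE against healthy, asks how disease changes transporter RNA. A gene is called when the Benjamini-Hochberg adjusted p of edgeR's quasi-likelihood test over all 16740 genes tested is under 0.05, and changes are log2 ± SE of 6 libraries against 6. All 189 members passed the filter on low counts. Of them 64 rose and 76 fell, 74.1% in all, where 31.7% of all genes tested rose and 30.7% fell. Members had to reach a minimum sum of counts, while all genes tested only had to pass the filter on low counts. No share called was taken among genes of like counts, so a higher share of members is not a result about Slc genes. The same limit holds wherever shares of members are set beside all genes below. The median change was -0.04 over the members and -0.00 over all genes. Of the called members 21 rose and 21 fell by 2-fold or more, a count that was not made over all genes. Scaling by library totals alone gives 28 rises and 112 falls, and leaving out control EAE replicate 10 gives 73 and 74. Many genes named below, in each comparison, were picked among called members whose groups do not overlap. For those genes the lack of overlap was a condition of naming and adds no support. How many of all genes lack overlap was not counted.

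The members of each substrate class are counted here beside all genes tested, of which 31.7% rose and 30.7% fell. In classes of over 10 members 50% to 87% were called, where 62.4% of all genes were. Carriers of sugars and polyols had 9 rises and 3 falls among 15 (median 0.45), mitochondrial carriers 14 and 10 among 32 (median 0.22), metal ion and heme carriers 8 and 7 among 22 (median 0.13), and nucleotide sugar carriers 7 and 4 among 22 (median 0.04). Carriers of sodium, potassium, calcium, protons and bicarbonate had 4 rises and 16 falls among 23 (median -0.73), and amino acid carriers 7 rises and 12 falls among 27 (median -0.10). The smaller classes had 4 rises and 4 falls among 8 carriers of neurotransmitters and osmolytes, 3 and 3 among 7 of mono- and dicarboxylates, 1 and 5 among 7 of lipids and organic ions, 2 and 3 among 9 of vitamins and choline, 1 and 3 among 5 of nucleosides, 1 and 2 among 3 of peptides, 1 and 1 among 4 of anions, and 2 and 3 among 5 partners that carry an Slc name. No test of a class was made, and the classes were chosen with earlier results of these data known.

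**Figure D1:**
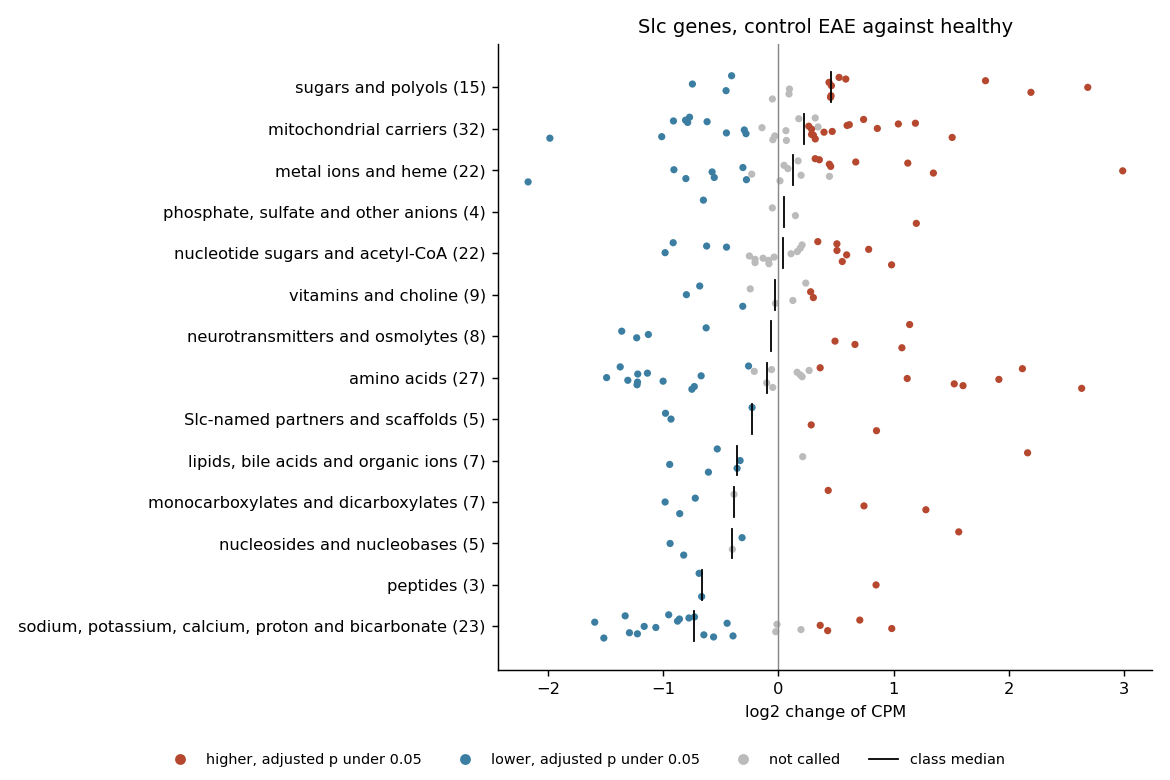
Change of each of the 189 Slc genes in control EAE against healthy libraries (x axis, log2 change of CPM, 6 libraries per group) by substrate class (y axis, number of genes in brackets, classes ordered by their median, black bar). Points are genes, coloured by the edgeR call; the ion carriers lie mostly left of 0 (16 of 23 lower) and the sugar carriers mostly right (9 of 15 higher).

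Amino acid carriers moved in both directions, and the light chains Slc7a8 and Slc7a5 fell while Slc7a2, Slc1a5 and Slc7a11, which carry arginine, glutamine and cystine, rose. Slc7a8 (LAT2; ENSMUSG00000022180, chromosome 14, 54722209 to 54781946, mm10), which exchanges neutral amino acids, was at 526, 586 and 680.2 CPM in healthy, 192, 230.4 and 256 CPM in control EAE and 282, 336 and 482 CPM in metformin EAE. The 3 groups did not overlap, and replicate 22 was the highest metformin library. It fell by a log2 change of -1.37 ± 0.12 (adjusted p = 8.19e-08). Slc7a5 (LAT1), which imports large neutral amino acids in exchange for glutamine, was at 90.7, 117 and 132 CPM in healthy and 45.7, 60.2 and 63.8 CPM in control EAE, without overlap (-1.0 ± 0.13, adjusted p = 2.52e-06). Their common heavy chain Slc3a2, which carries the light chains to the cell surface, was at 235, 276 and 287 CPM in healthy, 209, 236 and 311 CPM in control EAE and 223, 246 and 256 CPM in metformin EAE. These ranges overlap and Slc3a2 was not called in any comparison (control EAE against healthy -0.10 ± 0.09, adjusted p = 0.343), although scaling by library totals alone gives called differences of -0.53 for control EAE and -0.35 for metformin EAE against healthy.

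Among the rises, Slc7a2 (CAT2; ENSMUSG00000031596, chromosome 8, 40862396 to 40922308), which brings arginine to nitric oxide synthase and arginase in macrophages, went from 2.64, 3.83 and 5.37 CPM to 13.01, 24.2 and 34.5 CPM, with the lowest control EAE library above the highest healthy one. Its change was 2.63 ± 0.35 (adjusted p = 5.11e-06). The glutamine carrier Slc1a5 (ASCT2) went from 2.41, 3.43 and 4.67 CPM to 12, 14.8 and 18.1 CPM (2.12 ± 0.20, adjusted p = 1.69e-07), also without overlap. The cystine-glutamate antiporter Slc7a11, which supplies cysteine for glutathione, was at 1.74, 2.66 and 3.68 CPM in healthy and 5.18, 6.63 and 14.5 CPM in control EAE, a rise of 1.60 ± 0.32 (adjusted p = 0.000258) at a low level. The amino acid carrier Slc36a4 rose by 1.52 ± 0.20 and the aromatic amino acid carrier Slc16a10 by 1.12 ± 0.16, each without overlap. The lysosomal arginine sensor Slc38a9 fell by a log2 change of -0.67 ± 0.11, from a mean of 25.2 ± 1.40 to 15.8 ± 1.65 CPM (SD, n = 6), and the stress-inducible glutamine and alanine importer Slc38a2 by -0.75 ± 0.13, from 65.3, 77.1 and 83.2 CPM to 32.5, 43.9 and 62.7 CPM. In the same libraries 5 of 6 monocyte-derived markers tested rose, Ccr2 was not called (-0.44 ± 0.32, adjusted p = 0.237), and all 4 microglial markers tested fell. Their part in the changes of these carriers was not tested.

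Further amino acid carriers at low levels fell. In the same comparison all 12 neuron, all 4 microglial and 5 of 7 oligodendrocyte markers tested fell, while 5 of 6 monocyte-derived markers rose. The part of these cell types in the changes of the carriers was not tested. Slc7a10 (Asc-1), an exchanger of small neutral amino acids and D-serine, went from 6.49, 10.2 and 11.2 CPM to 2.86, 3.27 and 3.86 CPM (-1.49 ± 0.27). Slc6a17, a neutral amino acid carrier of synaptic vesicles, went from 17.1, 20.5 and 25.1 CPM to 6.35, 8.88 and 9.38 CPM (-1.31 ± 0.17), and Slc3a1, the heavy chain of the cystine carrier, from 8.85, 10.4 and 11.2 CPM to 2.33, 4.57 and 5.96 CPM (-1.23 ± 0.19). For these 3 genes every control EAE library was below every healthy one. Exons of Slc7a10 overlap Lrp3 and those of Slc3a1 overlap Prepl on the opposite strand, over 17.9% and 26.5% of their length, and whether counting used the strand is not given in the sources used here.

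Several amino acid carriers are known targets of Atf4, the transcription factor of the amino acid response, whose composite element was searched as TGATGNAA on both strands of RefSeq promoter windows (250 bases before to 50 after a start, GRCm38.p6). It occurs in 3.97% of all 32851 windows and at 4.51% of 27025 genes. Windows matched 146 members, of which 5 (3.42%) hold it, among them Slc7a11, Slc7a7 and Slc1a4 of the 20 amino acid members matched. The stretches around it are shown because matches to TGATGNAA lie near the starts of 3 carriers whose changes in control EAE differ. The changes were 1.60 ± 0.32 for Slc7a11, 0.16 ± 0.12 for the cationic amino acid exchanger Slc7a7 (adjusted p = 0.24) and -1.14 ± 0.17 for the serine and alanine exchanger Slc1a4 (adjusted p = 8.85e-06). Each stretch is read 5′ to 3′ on the gene's strand, here the minus strand, and capitals mark the element in either orientation.
Slc7a11, chr3:50443634-50443703: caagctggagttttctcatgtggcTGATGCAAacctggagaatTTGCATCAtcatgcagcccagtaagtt
Slc7a7, chr14:54418045-54418114: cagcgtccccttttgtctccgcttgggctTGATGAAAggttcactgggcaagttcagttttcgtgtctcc
Slc1a4, chr11:20332709-20332778: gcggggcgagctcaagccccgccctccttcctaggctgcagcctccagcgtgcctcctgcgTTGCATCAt
Slc7a11 holds a facing pair, starting at -66 and -47 from its start, Slc7a7 a copy at -141 and another at -1, which lies at -243 from a second annotated start, and Slc1a4 a copy at -4. Slc7a7 and Slc1a4 were chosen after their values were seen. Of 48 members that rose and 61 that fell among those matched, 2 and 2 hold the element. A match describes letters only and does not show that Atf4 binds there. Atf4 RNA itself was at 269 ± 11.6 CPM in healthy, 378 ± 47.2 CPM in control EAE (0.49 ± 0.09, adjusted p = 0.000131) and 274 ± 32.5 CPM in metformin EAE.

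Sugar carriers mostly rose. Slc2a6 (GLUT6; ENSMUSG00000036067, chromosome 2, 27021363 to 27027998), a hexose carrier of intracellular membranes, went from 5.89, 8.52 and 10.2 CPM in healthy to 30.3, 39.3 and 43.8 CPM in control EAE, with every control EAE library above every healthy one (2.19 ± 0.19, adjusted p = 8.4e-08). Slc45a3, of the family of proton-coupled sugar carriers, went from 1.65, 2.43 and 3.37 CPM to 7.54, 16.05 and 21.9 CPM (2.68 ± 0.38, adjusted p = 8.91e-06), with 13.5% of its exon length shared with a transcript that is not in the table. The glucose carrier Slc2a1 (GLUT1) was at 45.1, 54.6 and 76.01 CPM and 59.6, 85.97 and 110.5 CPM, ranges that overlap, and its rise of 0.53 ± 0.19 (adjusted p = 0.0237) was lost on leaving out control EAE replicate 2 or healthy replicate 12 or 20. Slc37a4, which brings glucose 6-phosphate into the endoplasmic reticulum, rose from a mean of 13.6 ± 1.24 to 18.7 ± 1.05 CPM (0.46 ± 0.09). Under scaling by library totals the calls of Slc2a1 and Slc37a4 are lost. Slc37a2, the highest of the class per kb and known as a glucose 6-phosphate and phosphate antiporter, was at 176 ± 33.1 and 189 ± 47.8 CPM (adjusted p = 0.611). Scaling by library totals turns its change from 0.10 to -0.34. Slc2a12 (GLUT12) fell by a log2 change of -0.41 ± 0.12, with overlap.

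Of the lactate and pyruvate carriers, Slc16a3 (MCT4), which exports lactate from glycolytic cells, was at 50.6, 69.4 and 95.9 CPM in healthy and 96.95, 114 and 148 CPM in control EAE. The lowest control EAE library lay just above the highest healthy one, and the rise was 0.74 ± 0.21 (adjusted p = 0.00469). Slc16a1 (MCT1) was at 20.98, 22.6 and 28.9 CPM and 28.7, 32.7 and 38.02 CPM, with overlap (0.43 ± 0.12, adjusted p = 0.00522). Both calls are lost under scaling by library totals. Their chaperone Bsg rose from 478 ± 29.6 to 799.7 ± 68.7 CPM (0.74 ± 0.11, adjusted p = 6.24e-06). The lysosomal sialic acid exporter Slc17a5, named after its values were seen, rose by 1.28 ± 0.13, and the carboxylate carriers Slc13a3, Slc16a6 and Slc16a7 fell by a log2 change of -0.98, -0.86 and -0.72.

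Among metal carriers, both copper carriers and the magnesium carrier Slc41a2 rose. The copper importer Slc31a1 (CTR1; ENSMUSG00000066150, chromosome 4, 62360727 to 62391769) went from 45.3, 50.7 and 59.9 CPM to 109.5, 131 and 147 CPM (1.34 ± 0.16, adjusted p = 1.16e-06). Its relative Slc31a2 (CTR2), which lies 62315 bases away on the same strand of chromosome 4, went from 46.2, 48.8 and 54.3 CPM to 97.8, 107 and 119 CPM (1.12 ± 0.13, adjusted p = 7.34e-07). Every control EAE library was above every healthy one for both copper genes. The magnesium carrier Slc41a2 had the largest rise of all members, from 1.10, 1.66 and 1.78 CPM to 7.84, 12.6 and 15.2 CPM (2.99 ± 0.32, adjusted p = 4.05e-07). Its relatives Slc41a1 and Slc41a3, named after their values were seen, changed by -0.31 ± 0.12 (adjusted p = 0.0321) and -0.23 ± 0.11 (adjusted p = 0.0792). Slc41a1 thus fell and Slc41a3 was not called.

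Zinc carriers went both ways. The plasma membrane zinc importer Slc39a1 (ZIP1), the highest metal carrier per kb, rose from 98.6, 106 and 146 CPM to 158, 176 and 203 CPM (0.67 ± 0.11). Slc39a8 (ZIP8), an importer of zinc and manganese, fell from 22.9, 23.2 and 25.3 CPM to 8.29, 13.1 and 15.2 CPM (-0.91 ± 0.13, adjusted p = 9.28e-06), and Slc39a3 (ZIP3) from 45.9, 50.8 and 54.6 CPM to 28.8, 33.4 and 39.5 CPM (-0.57 ± 0.09). None of these 3 zinc importers overlapped between the groups. Slc39a12, a further zinc importer named after its values were seen, had the lowest log2 change of all members (-2.17 ± 0.26) at 5.61 ± 1.05 CPM in healthy and 1.25 ± 0.188 CPM in control EAE. The zinc exporter Slc30a1 was listed at 0 in all libraries, as were Slc30a4 and Slc39a7, which need not mean absence of their RNA. The zinc-binding metallothioneins Mt1, Mt2 and Mt3 rose by 1.82 ± 0.16, 2.23 ± 0.24 and 1.10 ± 0.15. The heme carrier of lysosomes, Slc48a1, named after its values were seen, rose by 0.44 ± 0.13.

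Mitochondrial carriers, which link the matrix to the cytosol, had 14 rises and 10 falls. The phosphate carrier Slc25a3 went from 141, 149 and 159 CPM to 240.4, 261 and 313 CPM (0.86 ± 0.10, adjusted p = 6.56e-07). The carnitine-acylcarnitine carrier Slc25a20, which admits fatty acids for oxidation, went from 9.47, 10.1 and 11.7 CPM to 19.03, 20.5 and 24.7 CPM (1.04 ± 0.12, adjusted p = 5.61e-07), and the dicarboxylate carrier Slc25a10 from 14.7, 15.8 and 19.2 CPM to 38.97, 45.8 and 59.1 CPM (1.51 ± 0.18). The glutathione importer Slc25a39 went from 79.01, 83.1 and 87.5 CPM to 99.3, 128 and 162 CPM (0.61 ± 0.10). For these 4 genes every control EAE library was above every healthy one, and the call of Slc25a39 is lost under scaling by library totals. The ADP/ATP carrier Slc25a5, a gene with near-identical processed copies and a close relative in Slc25a4, was at 118 ± 7.51 and 147 ± 13.1 CPM, a called rise of 0.32 ± 0.09 that turns to -0.11 under scaling by library totals. Lower were the orphan carrier Slc25a35 (-0.81 ± 0.11) and the glycine carrier for heme synthesis Slc25a38 (-0.30 ± 0.09), from means of 10.6 ± 0.837 and 17.1 ± 0.781 CPM. Exons of Slc25a35 share 31.3% of their length with Rangrf on the opposite strand. Of 4 mitochondrial carriers without an Slc symbol, the pyruvate carrier subunit Mpc1 (-0.52 ± 0.13) and the calcium uniporter Mcu (-0.44 ± 0.11) fell, and Mpc2 (0.30 ± 0.10) and Micu2 (0.28 ± 0.08) rose.

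Ion carriers fell most often of the larger classes, 16 of 23. Slc24a3, a potassium-dependent sodium-calcium exchanger (ENSMUSG00000063873, chromosome 2, 145167754 to 145642166), went from 59.5, 64.05 and 77.7 CPM to 18.1, 22.1 and 25.8 CPM (-1.59 ± 0.18, adjusted p = 6.61e-07). The neuronal chloride exporter Slc12a5 (KCC2) went from 35.4, 40.9 and 48.5 CPM to 13.3, 16.5 and 19.02 CPM (-1.33 ± 0.19, adjusted p = 7.69e-06), and the sodium-calcium exchanger Slc8a1 (NCX1) from 21.04, 23.1 and 27.9 CPM to 2.21, 10.99 and 13.8 CPM (-1.29 ± 0.28, adjusted p = 0.000552). The sodium-driven bicarbonate carriers Slc4a8 and Slc4a7 fell by a log2 change of -1.22 ± 0.20 and -0.65 ± 0.15, and the endosomal sodium-proton exchanger Slc9a9, the highest of the class per kb (25.97 CPM per kb in healthy), from 141, 143 and 158 CPM to 63.6, 86.7 and 101 CPM (-0.78 ± 0.12). For these 6 genes every control EAE library was below every healthy one, which for Slc24a3, Slc12a5, Slc8a1 and Slc4a8 was a condition of being named. The mitochondrial sodium-calcium exchanger Slc8b1, named after its values were seen, rose by 0.98 ± 0.11, from 30.3 ± 4.42 to 59.9 ± 4.94 CPM.

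Of the 8 carriers of neurotransmitters and osmolytes 4 rose and 4 fell, with a glycine carrier among the falls and those of creatine and taurine among the rises. Slc6a5 (GlyT2), the glycine carrier of inhibitory nerve terminals, went from 21.7, 26.5 and 28.5 CPM to 8.04, 10.2 and 11.4 CPM (-1.36 ± 0.18, adjusted p = 4.11e-06). The gene did not overlap between the groups, which was a condition of its naming. The neuron marker sum (722 to 1000 CPM and 264 to 446 CPM) did not overlap either. The same held for the microglial marker sum (13490 to 15830 CPM and 2681 to 4738 CPM). The part of either cell type in this fall was not tested. The polyamine carrier Slc18b1 fell by a log2 change of -0.63 ± 0.15. The taurine carrier Slc6a6 was at 287, 306 and 442 CPM and 265, 488 and 552 CPM, with overlap (0.49 ± 0.16, adjusted p = 0.0114), and its call is lost under scaling by library totals. The creatine carrier Slc6a8, named after its values were seen, rose from 39.4 ± 4.20 to 82.7 ± 28.8 CPM (1.07 ± 0.19).

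**Figure D2:**
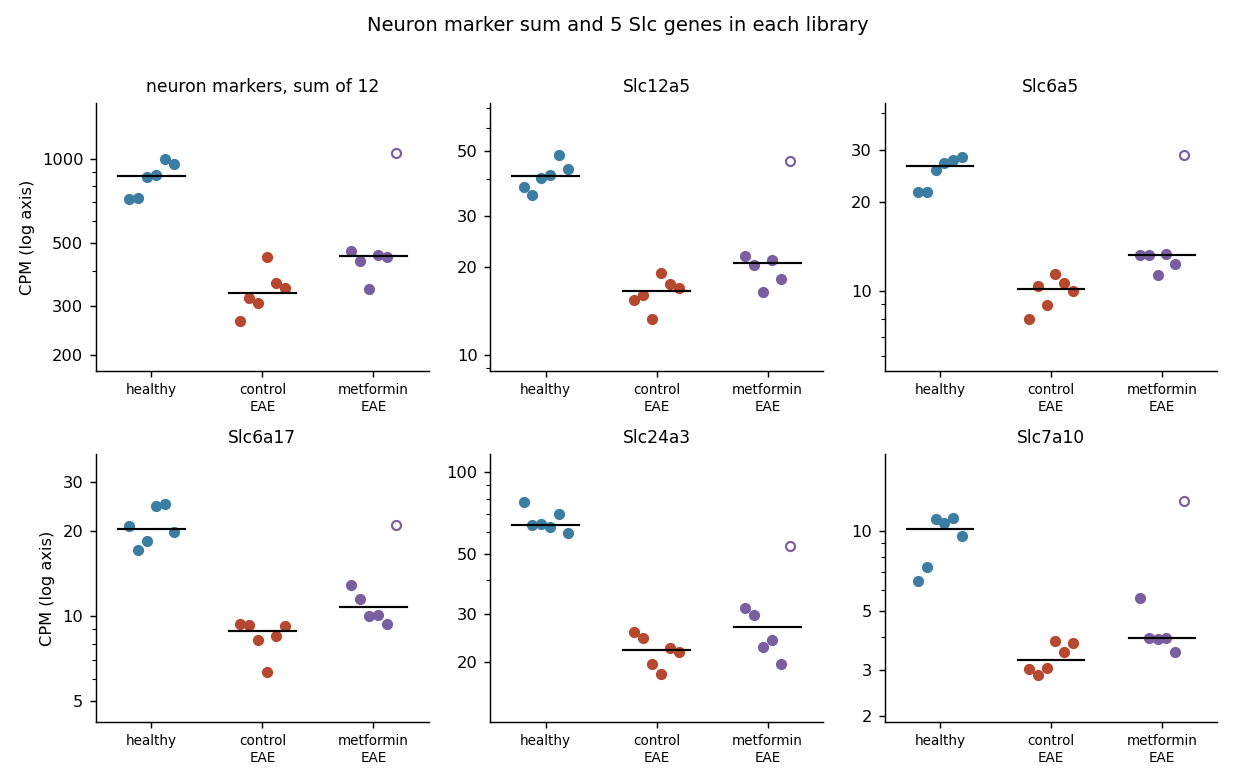
Summed CPM of 12 neuron markers and CPM of 5 Slc genes (y axes, log scale) in each library of the 3 groups (x axis); points are libraries, bars are group medians and the open circle is metformin replicate 22. In all 6 panels control EAE lies below healthy without overlap, and replicate 22 stands above the other 5 metformin libraries. For the 5 genes the lack of overlap was a condition of naming. The microglial marker sum, not drawn, also lay lower in control EAE without overlap (13490 to 15830 CPM in healthy, 2681 to 4738 CPM in control EAE).

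Carriers of lysosomal and nucleic acid cargo split as well. The lysosomal nucleoside carrier Slc29a3 (ENT3; ENSMUSG00000020100, chromosome 10, 60712072 to 60752794) fell from 464, 514 and 703 CPM to 152, 332 and 367 CPM (-0.82 ± 0.16, adjusted p = 0.000206), while the purine nucleobase carrier Slc43a3 rose from 2.38, 3.69 and 4.14 CPM to 8.02, 10.3 and 11.3 CPM (1.56 ± 0.22). The endolysosomal histidine and peptide carriers Slc15a3 and Slc15a4, both linked to innate immune sensing, moved apart. Slc15a3 rose from 159, 164 and 222 CPM to 262, 316 and 357 CPM (0.85 ± 0.14, adjusted p = 3.2e-05) and Slc15a4 fell from 84.7, 98.3 and 129 CPM to 39.5, 65.9 and 84.5 CPM (-0.67 ± 0.15, adjusted p = 0.000642), and neither overlapped between the groups. Exons of Slc15a3 share 28.1% of their length with Tmem132a on the opposite strand. Slc46a3, a lysosomal carrier, fell by a log2 change of -0.68 ± 0.18 and the choline carrier-like Slc44a2 by -0.80 ± 0.15, from 209, 241 and 270.2 CPM to 82.3, 137 and 175 CPM. The riboflavin carrier Slc52a2 rose by 0.30 ± 0.08, a change that turns to -0.12 under scaling by library totals.

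The fatty acid carrier Slc27a1 (FATP1; ENSMUSG00000031808, chromosome 8, 71568882 to 71587302) went from 14.1, 16.2 and 18.3 CPM in healthy to 43.2, 73.6 and 93.3 CPM in control EAE (2.16 ± 0.22, adjusted p = 2.75e-07), the one rise in a class with 5 falls, among them the orphan Slc10a3 (-0.53 ± 0.16), which shares 12.8% of its exon length with Ubl4a. Carriers of nucleotide sugars and acetyl-CoA, which supply glycosylation in the endoplasmic reticulum and Golgi, had a lower share of calls than the other classes of over 10 members, 11 of 22. The sulfate donor carrier Slc35b2 (116 ± 18.1 CPM in control EAE, adjusted p = 0.0954), the UDP-N-acetylglucosamine carrier Slc35a3 (20.9 ± 4.43 CPM, adjusted p = 0.57), the acetyl-CoA carrier Slc33a1 (21.6 ± 3.94 CPM, adjusted p = 0.792) and Slc35c2 (95.1 ± 9.42 CPM, adjusted p = 0.1) were not called. Slc35e3 fell by a log2 change of -0.91 ± 0.13 and Slc35g1 rose by 0.98 ± 0.22, both without a substrate named here. The phosphate importer Slc20a1 was at 32.8 ± 2.96 CPM in healthy and 31.6 ± 2.26 CPM in control EAE (adjusted p = 0.587). Under scaling by library totals there are called falls of Slc35b2, Slc35a3, Slc33a1 and Slc20a1, and Slc35c2 turns from 0.16 to -0.26. The scaffold Slc9a3r1 (NHERF1), which anchors transporters to the cytoskeleton, rose from 62.8, 71.9 and 82.4 CPM to 108, 129 and 151 CPM (0.85 ± 0.12) and its relative Slc9a3r2 fell from 11.9, 13.3 and 15.01 CPM to 6.01, 7.10 and 8.65 CPM (-0.93 ± 0.13).

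**Figure D3:**
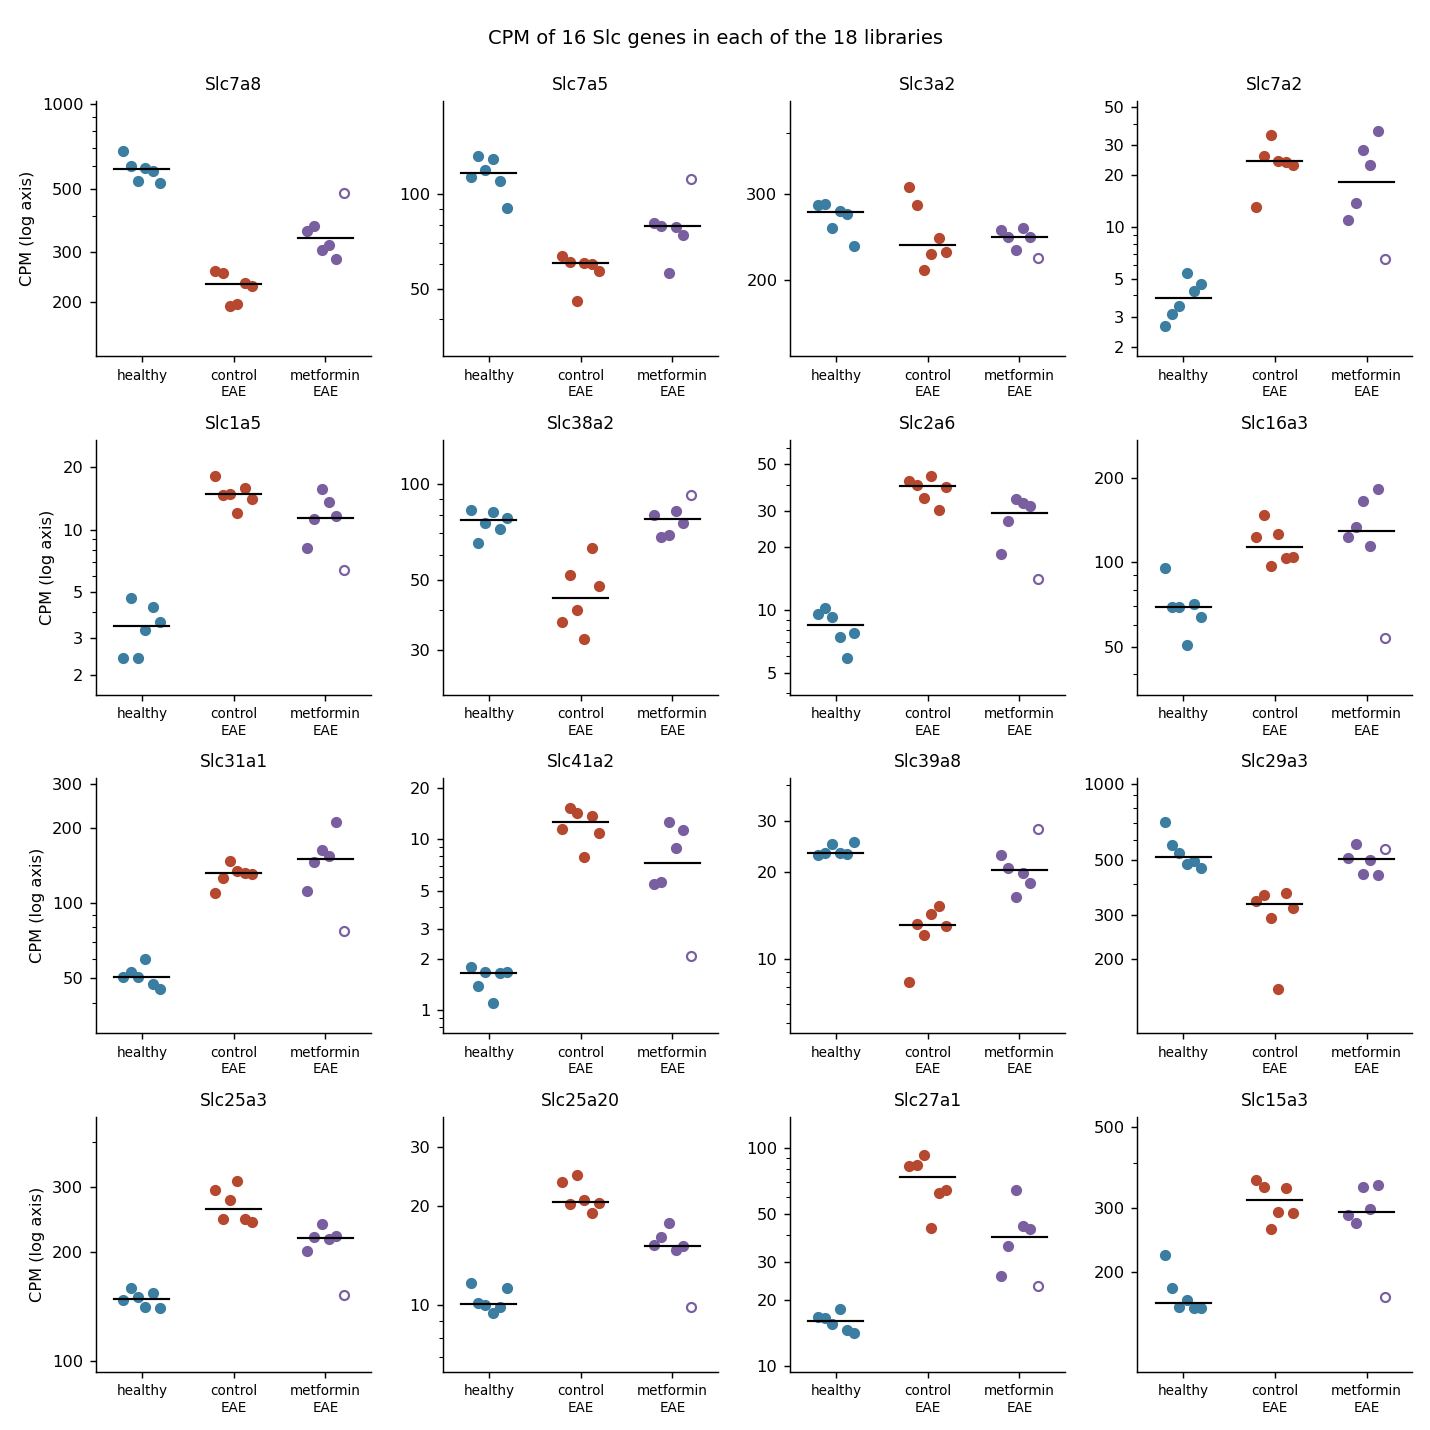
CPM (y axes, log scale) of 16 Slc genes in each of the 18 libraries by group (x axis); points are libraries, bars group medians, and the open circle is metformin replicate 22. Control EAE and healthy libraries do not overlap in any panel but that of the heavy chain Slc3a2, and replicate 22 is the highest or lowest of its group in all panels but that of Slc29a3.

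The second comparison sets metformin EAE against control EAE. No group here is healthy mice given metformin, so an action of the drug itself and a difference in disease cannot be told apart. With all libraries 33 members rose and 24 fell (30.2%), where 12.5% of all genes rose and 12.1% fell. Without metformin replicate 22 the counts were 21 and 15 (19%), where 8.5% and 9.84% of all genes were called. The median change of the members was 0.07 in both fits. The count of falls also dropped to 13 on leaving out control EAE replicate 1 or metformin replicate 5, and to 15 on leaving out metformin replicate 6, and scaling by library totals alone gives 78 rises and 8 falls. Fitting only the 12 libraries of these 2 groups gives 15 and 13, and among the genes named below it ends the calls of Slc2a6, Slc3a1, Slc4a8, Slc6a5, Slc6a17, Slc7a10, Slc8a1, Slc9a9, Slc12a5, Slc25a10, Slc25a38, Slc33a1, Slc38a9, Slc45a3 and Slc52a2, whose log2 changes moved by at most 0.009. Amino acid carriers had 10 rises and no fall among 27 (5 and 0 without replicate 22), ion carriers 9 rises and 1 fall among 23 (4 and 1), sugar carriers no rise and 5 falls among 15 (0 and 4), and mitochondrial carriers 3 rises and 7 falls among 32 (1 and 4). Of the marker lists, all 4 microglial and 2 of 12 neuron markers tested rose in the same comparison with all libraries, as did 2 of 6 oligodendrocyte precursor markers. Of 6 monocyte-derived and 7 fibroblast and mural markers 1 each fell, and of 7 astrocyte markers 1 rose and 1 fell. Without replicate 22 the microglial, neuron, monocyte-derived and astrocyte counts were the same. In that fit the fibroblast and mural call was lost, 1 of 6 oligodendrocyte precursor markers fell and none rose, and 1 of 2 border macrophage markers fell. This comparison shares its control EAE libraries with the first, so changes of opposite sign in the 2 are not independent.

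The rises in metformin EAE included the 3 amino acid carriers Slc38a2, Slc7a8 and Slc7a5. Slc38a2 was at 32.5, 43.9 and 62.7 CPM in control EAE and 67.9, 77.9 and 92.2 CPM in metformin EAE, without overlap (0.79 ± 0.13, adjusted p = 0.00112), and the change was 0.73 ± 0.13 (adjusted p = 0.00169) without replicate 22. Slc7a8 rose by 0.64 ± 0.12 (adjusted p = 0.00192), again without overlap, and by 0.53 ± 0.10 without replicate 22 (adjusted p = 0.0023). Slc7a5 rose by 0.47 ± 0.13 (adjusted p = 0.0135; 0.35 ± 0.11 and adjusted p = 0.0346 without replicate 22) with a metformin range of 56.1, 78.97 and 112 CPM that overlaps control EAE. Slc7a2, Slc1a5 and Slc7a11, which rose in EAE, were not called, at -0.29 ± 0.32 for Slc7a2 (adjusted p = 0.545), -0.43 ± 0.19 for Slc1a5 (adjusted p = 0.114, called on leaving out metformin replicate 13) and -0.05 ± 0.31 for Slc7a11 (adjusted p = 0.92). Without replicate 22 these were -0.11 ± 0.28, -0.31 ± 0.18 and 0.14 ± 0.24 (adjusted p = 0.831, 0.236 and 0.727).

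Other rises without overlap between metformin and control EAE were in carriers of metals, ions, nucleosides, nucleotide sugars and acetyl-CoA. Slc39a8 was at 16.3, 20.3 and 28.1 CPM in metformin EAE (0.73 ± 0.13, adjusted p = 0.00184; 0.63 ± 0.12 without replicate 22). Slc29a3 was at 432, 504 and 575 CPM (0.71 ± 0.16, adjusted p = 0.00466; 0.68 ± 0.17 and adjusted p = 0.00964 without replicate 22). The bicarbonate carrier Slc4a7 was at 17.4, 20.1 and 26.9 CPM (0.72 ± 0.15, adjusted p = 0.00279; 0.63 ± 0.14 without replicate 22) and the calcium exchanger Slc8a1 at 14.3, 18.3 and 27.6 CPM (0.96 ± 0.28, adjusted p = 0.0182; 0.82 ± 0.28 and adjusted p = 0.0488 without replicate 22). Slc35a3, the UDP-N-acetylglucosamine carrier, was at 26.7, 29.96 and 33.3 CPM, above 12.7, 21.6 and 25.8 CPM in control EAE and 19.3, 22.6 and 25.1 CPM in healthy libraries (0.52 ± 0.13, adjusted p = 0.007; 0.50 ± 0.13 without replicate 22). The acetyl-CoA carrier Slc33a1 rose by 0.35 ± 0.12 (adjusted p = 0.0331; 0.36 ± 0.12 without replicate 22), a call that 5 of the 18 single-library omissions end, namely control EAE 1 and 9 and metformin 6, 13 and 21, and 32.0% of its exon length overlaps an antisense transcript. Neither of the last 2 genes was called in control EAE against healthy.

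The falls without overlap were in mitochondrial, sugar, nucleotide sugar and riboflavin carriers. The glutathione importer Slc25a39 was at 99.3, 128 and 162 CPM in control EAE and 75.8, 86.8 and 97.4 CPM in metformin EAE (-0.56 ± 0.10, adjusted p = 0.00143; -0.53 ± 0.10 without replicate 22). The carnitine-acylcarnitine carrier Slc25a20 was at 9.88, 15.2 and 17.7 CPM in metformin EAE (-0.54 ± 0.12, adjusted p = 0.0036; -0.44 ± 0.09 without replicate 22) and the phosphate carrier Slc25a3 at 153, 218 and 239 CPM (-0.37 ± 0.10, adjusted p = 0.0101; -0.30 ± 0.08 without replicate 22). In both, replicate 22 (9.88 and 153 CPM) was the lowest metformin library. Slc35c2 fell by a log2 change of -0.39 ± 0.09 (-0.43 ± 0.09 without replicate 22) and Slc37a4 by -0.36 ± 0.09 (-0.32 ± 0.09 without it). The calls of Slc25a3, Slc35c2 and Slc37a4 are lost under scaling by library totals. The riboflavin carrier Slc52a2 fell by a log2 change of -0.22 ± 0.08 (adjusted p = 0.0495), which 15 of the 18 single-library omissions end, replicate 22 among them (adjusted p = 0.092), and which turns to 0.0058 under scaling by library totals.

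With overlap, the sugar carriers Slc45a3 and Slc2a6 also fell. Slc45a3 changed by -1.18 ± 0.36 (adjusted p = 0.0231; -0.98 ± 0.29 and adjusted p = 0.0274 without replicate 22), a call lost without metformin replicate 5 or 6, and Slc2a6 by -0.54 ± 0.18 (adjusted p = 0.0371; adjusted p = 0.0663 without replicate 22), a call lost on leaving out control EAE 1, 2, 10 or 18 or metformin 5, 6 or 22. Slc27a1 fell by a log2 change of -0.87 ± 0.21 (adjusted p = 0.00661; -0.75 ± 0.20 and adjusted p = 0.0131 without replicate 22), with metformin libraries at 23.4, 39.1 and 64.5 CPM. Slc25a10 changed by -0.51 ± 0.18 (adjusted p = 0.0398; adjusted p = 0.0662 without replicate 22), a call that 7 omissions end, of control EAE 1, 2 or 9 or metformin 5, 14, 21 or 22. Slc25a38 changed by -0.27 ± 0.09 (adjusted p = 0.034; -0.33 ± 0.09 and adjusted p = 0.0158 without replicate 22), and omission of control EAE 1, 10 or 18 or metformin 5, 6, 13 or 21 ends that call. Scaling by library totals ends the calls of Slc2a6, Slc25a10 and Slc25a38. The lactate and glucose carriers were not called, with Slc16a3 at 0.14 ± 0.21 (adjusted p = 0.656), Slc16a1 at -0.03 ± 0.12 (adjusted p = 0.899) and Slc2a1 at 0.29 ± 0.19 (adjusted p = 0.286). Without replicate 22 these were 0.30 ± 0.15, 0.08 ± 0.10 and 0.42 ± 0.16 (adjusted p = 0.169, 0.62 and 0.069). Scaling by library totals makes Slc2a1 a called rise of 0.49, 1 of 14 genes named here that become called rises under it, at 0.25 to 0.73.

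The rises of Slc12a5, Slc6a5 and 6 other carriers that had fallen in EAE moved with replicate 22 in this comparison. Slc12a5 was at 46.2 CPM in replicate 22 and 16.4 to 21.9 CPM in the other 5 metformin libraries, and its rise of 0.56 ± 0.19 (adjusted p = 0.0374) became 0.26 ± 0.10 (adjusted p = 0.0853) without it. Slc6a5 was at 28.9 CPM against 11.3 to 13.3 CPM, and changed by 0.63 ± 0.18 with and 0.35 ± 0.11 without it (adjusted p = 0.0171 and 0.0248). Slc7a10 went from 0.76 ± 0.27 to 0.32 ± 0.16 (adjusted p = 0.183), Slc3a1 from 0.57 ± 0.19 to 0.38 ± 0.17 (adjusted p = 0.118), and Slc6a17 from 0.56 ± 0.17 to 0.34 ± 0.13 (adjusted p = 0.0614). Slc4a8 went from 0.61 ± 0.20 to 0.36 ± 0.14 (adjusted p = 0.0828), Slc38a9 from 0.33 ± 0.11 to 0.21 ± 0.08 (adjusted p = 0.0807) and Slc9a9 from 0.40 ± 0.12 to 0.29 ± 0.11 (adjusted p = 0.0665). All 6 were called with replicate 22 and none without it. Some of these calls also end on leaving out a control EAE library, as do those of Slc12a5 (1, 2, 9 or 18), Slc3a1 (1, 2, 9 or 10, or metformin 14), Slc4a8 (1 or 9, or metformin 14) and Slc38a9 (9, 10 or 18). The call of Slc7a10 is lost on leaving out any of 13 of the 18 libraries. Marker sums of several lists also set replicate 22 apart. The neuron sum was 1054 CPM in replicate 22 and 344 to 472 CPM in the other 5. The microglial sum was 13760 CPM against 5579 to 9046 CPM, and the monocyte-derived sum 1230 CPM against 9967 to 20500 CPM. The part of these cell types in the rises was not tested.

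**Figure D4:**
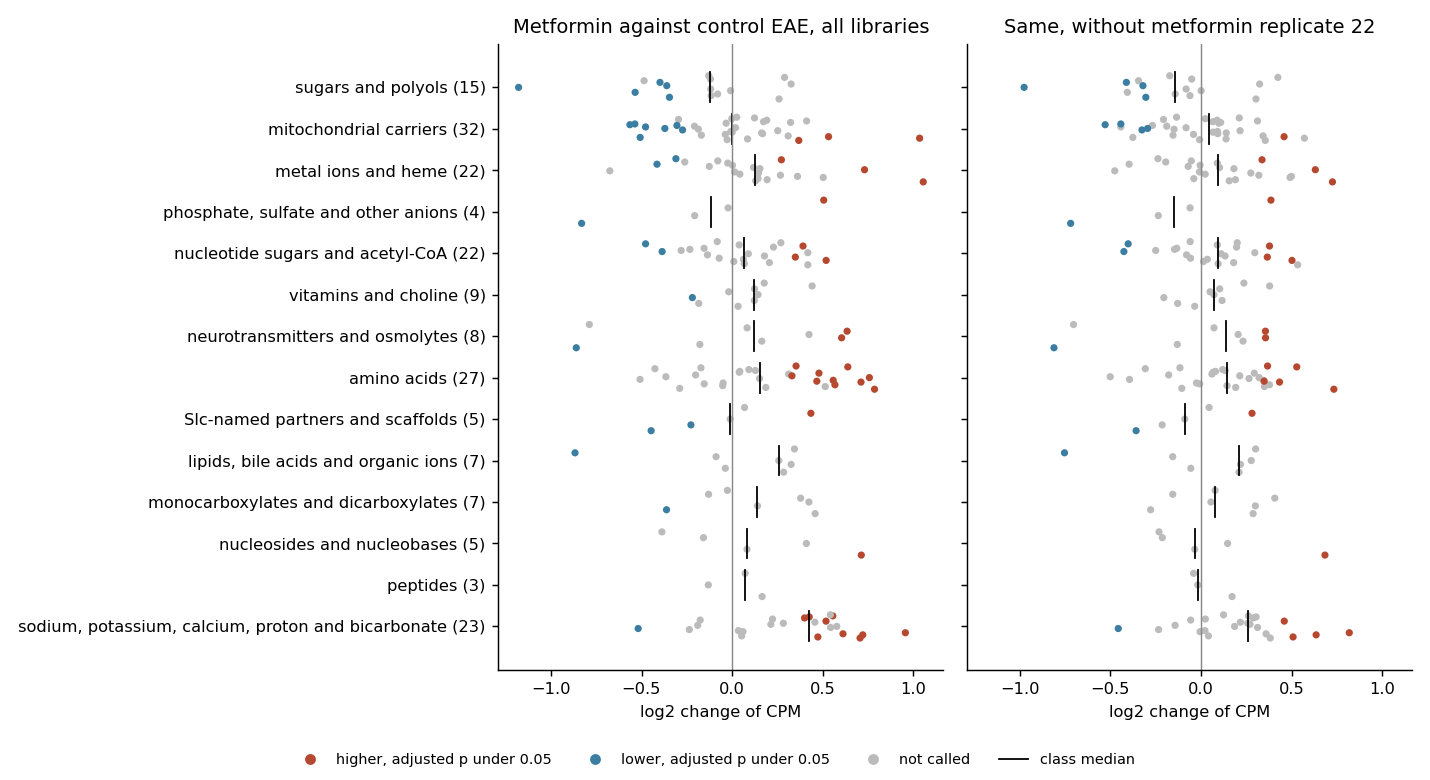
Change of each of the 189 Slc genes in metformin EAE against control EAE (x axes, log2 change of CPM) by substrate class (y axis, number of genes in brackets), with all libraries on the left and without metformin replicate 22 on the right. Points are genes, coloured by the edgeR call, and bars are class medians; among amino acid carriers 10 are called higher on the left and 5 on the right, and none lower on either side.

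The third comparison, metformin EAE against healthy, asks how treated EAE mice differ from healthy mice. Of the members 50 were higher and 44 lower (49.7%), where 20.3% and 16.3% of all genes were called. Without replicate 22 they were 58 and 53 (58.7%), where 23.9% and 22.5% were called, and scaling by library totals gives 31 and 68. Metal carriers had 9 higher and 3 lower among 22 (9 and 3 without replicate 22), mitochondrial carriers 12 and 8 among 32 (13 and 9), amino acid carriers 7 and 8 among 27 (7 and 9), sugar carriers 5 and 2 among 15 (6 and 2), and ion carriers 2 and 7 among 23 (4 and 11 without replicate 22). Vitamin and choline carriers had 1 call among 9 and 4 without replicate 22. Against healthy libraries all 4 microglial, 8 of 12 neuron and 5 of 7 oligodendrocyte markers were lower (all 4, all 12 and 6 without replicate 22). Higher were 5 of 6 monocyte-derived markers, both border macrophage and both neutrophil markers, all 4 T cell markers and 1 of 6 endothelial markers, each the same without replicate 22. Fibroblast and mural markers had 6 higher and 1 lower of 7, oligodendrocyte precursor markers 2 and 4 of 6 and astrocyte markers 1 and 3 of 7 in both fits. The part of these cells in the differences was not tested.

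Among the members higher than in healthy libraries without overlap, the largest differences were those of Slc7a2 (2.34 ± 0.35, adjusted p = 6.84e-05; 2.52 ± 0.29 without replicate 22), Slc41a2 (2.31 ± 0.31; 2.51 ± 0.22), Slc1a5 (1.69 ± 0.20; 1.81 ± 0.18) and Slc2a6 (1.66 ± 0.19; 1.78 ± 0.15). In each of these 4 every metformin library, replicate 22 included, was above every healthy one. The copper importer Slc31a1 was at 77.1, 150.1 and 210.5 CPM (1.49 ± 0.16, adjusted p = 3.39e-06; 1.62 ± 0.12 without replicate 22), with 77.1 CPM in replicate 22 still above the highest healthy library of 59.9 CPM. Slc31a2 was 1.10 ± 0.13 (1.21 ± 0.09 without replicate 22), Slc36a4 1.37 ± 0.20 (1.52 ± 0.15), Slc16a10 1.27 ± 0.16 (1.38 ± 0.13), Slc27a1 1.29 ± 0.21 (1.41 ± 0.20) and Slc35g1 1.40 ± 0.22 (1.51 ± 0.21) on the log2 scale, all without overlap. Slc2a1 and Slc16a3 were also higher, by 0.82 ± 0.19 (adjusted p = 0.00303; 0.95 ± 0.16 without replicate 22) and 0.88 ± 0.21 (adjusted p = 0.00306; 1.04 ± 0.15 without it), with replicate 22 inside the healthy range of both. Slc25a5 was higher by 0.40 ± 0.09 (0.46 ± 0.08 without replicate 22), a call that is lost under scaling by library totals.

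Lowest against healthy without overlap were the calcium exchanger Slc24a3 (-1.14 ± 0.18, adjusted p = 8.32e-05; -1.38 ± 0.12 without replicate 22), the scaffold Slc9a3r2 (-0.94 ± 0.13; -1.02 ± 0.12), Slc7a8 (-0.73 ± 0.12, adjusted p = 9.92e-05; -0.84 ± 0.10), the choline carrier-like Slc44a2 (-0.66 ± 0.15; -0.73 ± 0.15) and Slc35e3 (-0.64 ± 0.13; -0.71 ± 0.12). Smaller differences without overlap were those of Slc25a35 (-0.61 ± 0.11) and Slc25a38 (-0.57 ± 0.09). Also without overlap were the zinc importer Slc39a3 (-0.56 ± 0.09), the polyamine carrier Slc18b1 (-0.54 ± 0.15) and the glucose carrier Slc2a12 (-0.54 ± 0.12). All 5 were called with and without replicate 22. Slc25a38 was at 15.97, 17.2 and 18.3 CPM in healthy, 12.3, 13.7 and 15.7 CPM in control EAE and 9.96, 11.6 and 13.6 CPM in metformin EAE.

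Several carriers were not called against healthy although they were called in the other comparisons, among them Slc38a2 (0.03 ± 0.13, adjusted p = 0.85), Slc29a3 (-0.11 ± 0.16, adjusted p = 0.618), Slc4a7 (0.07 ± 0.14, adjusted p = 0.711), Slc39a8 (-0.18 ± 0.13, adjusted p = 0.307), Slc25a39 (0.05 ± 0.10, adjusted p = 0.704) and Slc37a4 (0.10 ± 0.09, adjusted p = 0.384). Without replicate 22 these values were -0.02 ± 0.13, -0.14 ± 0.17, -0.01 ± 0.14, -0.28 ± 0.12, 0.09 ± 0.10 and 0.14 ± 0.09, and none was called. An adjusted p above the threshold does not show that the groups are equal. The 3 comparisons share libraries in pairs, and their values are set side by side only.

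**Figure D5:**
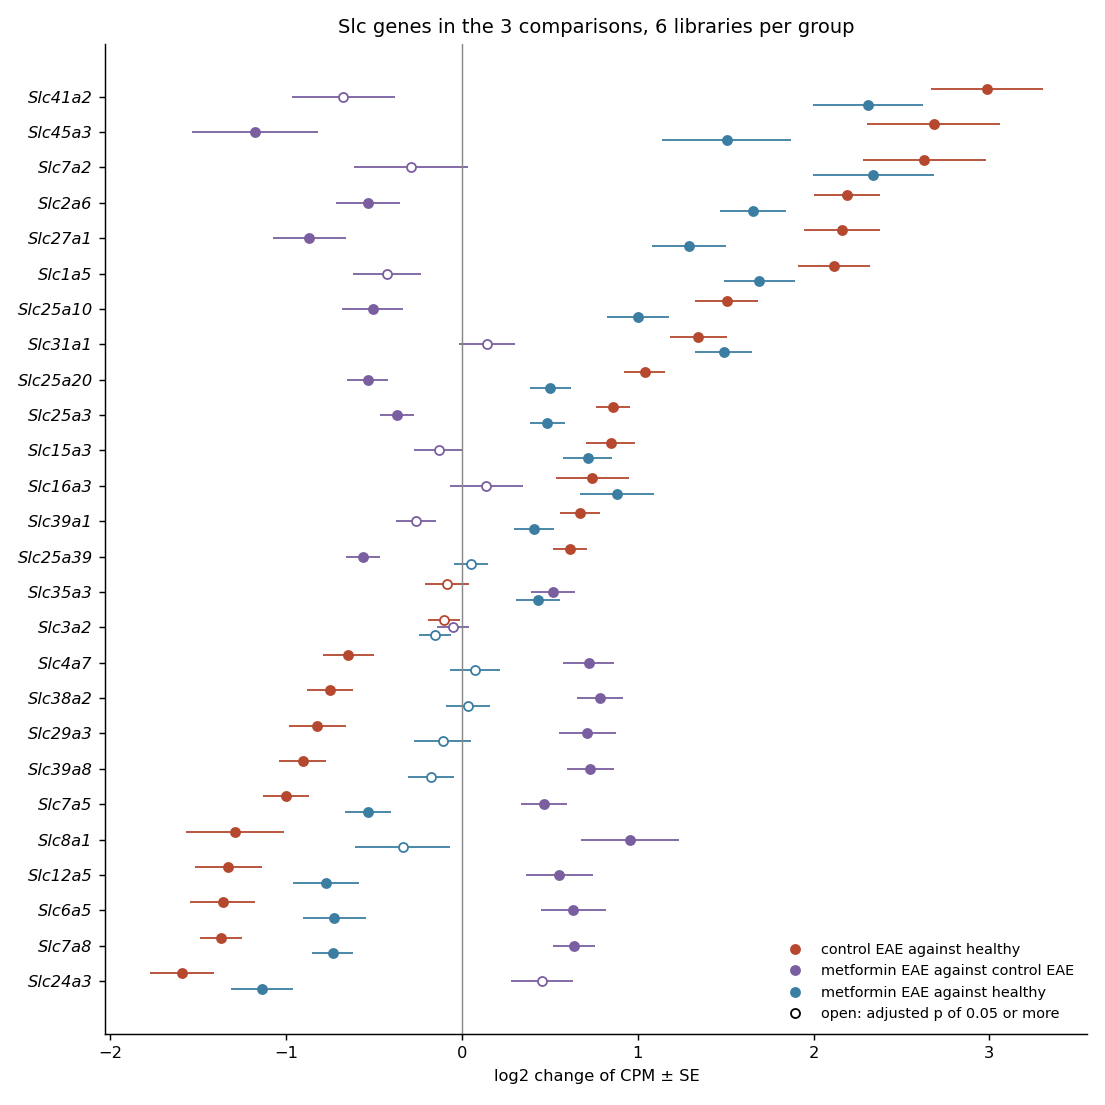
Log2 change of CPM ± SE (x axis) of 26 Slc genes (y axis, ordered by their change in control EAE) in the 3 comparisons, with 6 libraries per group. Filled points passed an adjusted p of 0.05 and open points did not; Slc3a2 is open in all 3, and Slc38a2, Slc29a3, Slc4a7 and Slc39a8 are filled in both comparisons with control EAE and open against healthy.

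The RNA of partner and chaperone proteins was counted too. Of 5 tested partners and chaperones 3 rose in control EAE and 1 fell, where 31.7% and 30.7% of all genes did. Bsg, the chaperone of the lactate carriers, was at 478 ± 29.6, 799.7 ± 68.7 and 637 ± 109.9 CPM in healthy, control EAE and metformin EAE, and Glmp, the partner of the lysosomal carrier Mfsd1, at 179 ± 12.8, 484 ± 74.6 and 328 ± 84.7 CPM (1.43 ± 0.15 in control EAE, adjusted p = 2.92e-07). Ostm1, the partner of the lysosomal chloride-proton exchanger Clcn7, rose by 0.91 ± 0.13, and Lrrc8a, an anion channel subunit, fell by a log2 change of -0.38 ± 0.11. In metformin against control EAE 2 of the 5 fell, where 12.1% of all genes did. These were Bsg by -0.33 ± 0.10 (adjusted p = 0.0531 without replicate 22) and Glmp by -0.56 ± 0.15 (adjusted p = 0.011 without it).

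Of 8 genes known to act on carriers, as transcription factors or through protein turnover, 5 rose and 1 fell in control EAE, where 31.7% and 30.7% of all genes did. The 3 metallothioneins on the same list, which bind metal ions, all rose. The hypoxia factor subunit Hif1a, which drives genes of glucose uptake, was at 47.1 ± 6.22 CPM in healthy, 155 ± 40.3 CPM in control EAE and 168 ± 60.5 CPM in metformin EAE (1.72 ± 0.24 in control EAE, adjusted p = 6.95e-06). Txnip, an arrestin that removes glucose carriers from the cell surface, was at 711 ± 76.3, 309.6 ± 67.7 and 403 ± 96.5 CPM (-1.20 ± 0.16, adjusted p = 2.71e-06). In metformin against control EAE none of the 8 rose and 3 fell, where 12.5% and 12.1% of all genes did. Atf4 fell by a log2 change of -0.47 ± 0.09 (adjusted p = 0.00255; -0.43 ± 0.09 without replicate 22). The other 2, the redox sensor Keap1 (-0.23 ± 0.08) and the lysosomal regulator Tfeb (-0.27 ± 0.10), were not called without replicate 22 (adjusted p = 0.115 and 0.109). The metallothioneins Mt1, Mt2 and Mt3 fell by a log2 change of -1.05 ± 0.16, -1.34 ± 0.23 and -0.97 ± 0.15, and were -0.95 ± 0.14, -1.25 ± 0.24 and -0.98 ± 0.16 without replicate 22, still called.

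Of 9 tested facilitators and exporters outside the Slc symbols 3 rose and 2 fell in control EAE, where 31.7% and 30.7% of all genes did. The lysosomal cysteine importer Mfsd12 was at 69.1 ± 10.99, 438 ± 127 and 281 ± 119 CPM in healthy, control EAE and metformin EAE (2.67 ± 0.30 in control EAE, adjusted p = 1.17e-06). Of the 9 the phosphate exporter Xpr1 rose in metformin against control EAE (0.37 ± 0.12, adjusted p = 0.0531 without replicate 22). Of 7 organic anion transporters 5 fell and 1 rose in control EAE, beside the 30.7% and 31.7% of all genes. The microglial Slco2b1 was at 1434 ± 167, 583 ± 124 and 875 ± 214 CPM (-1.30 ± 0.16 in control EAE and 0.58 ± 0.16 in metformin against control EAE, with adjusted p = 1.64e-06 and 0.0126; 0.46 ± 0.15 and adjusted p = 0.0339 for the latter without replicate 22). None of the 4 mitochondrial carriers without an Slc symbol was called in metformin against control EAE by edgeR, with adjusted p of 0.168 for Mpc1, 0.189 for Mpc2, 0.959 for Mcu and 0.744 for Micu2.

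The other response elements searched were the antioxidant element TGACNNNGC, present in 12.4% of all windows and at 14% of all genes and 24% of the members matched, the hypoxia core ACGTG (19.6% of windows, 21.8% of genes and 34.2% of members), the metal response core TGCNCNC (51%, 53.6% and 67.1%) and the lysosomal E-box core TCACGTGA (0.974%, 1.12% and 2.74%), which contains the hypoxia core. The hypoxia core stands in windows of 17 of the 48 matched members that rose in control EAE and 17 of the 61 that fell, and the antioxidant element in 12 and 12. These shares describe letters and not binding, and no match says only that the letters are not in this window. The share of all genes covers every gene with a window, while members had to be protein-coding and pass a minimum of counts. No share was taken among like genes, so the higher shares of the members are not a result about Slc genes.

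Within 100000 bases of one another on the same chromosome lay 8 pairs of members. Both genes of a pair were called in the same direction in control EAE for Slc31a1 and Slc31a2 and for the amino acid carriers Slc38a1 (-0.26 ± 0.11) and Slc38a2, which are 44478 bases apart on the same strand of chromosome 15. Exons of 16 members overlap another annotated gene over at least 10% of their length, 12 of them a protein-coding gene, and their values are uncertain to the extent that counting ignored the strand.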

How the data were processed

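RNA was sequenced from 18 samples, 6 in each of 3 groups taken from the labels. Per the labels' protocols, RNA was extracted with Direct-zol and libraries were made with a KAPA stranded kit with mRNA enrichment and PCR. Per the submitters' processing notes, bcl2fastq 2.17, FastQC, Trimmomatic and the build mm10 were used, while for the aligner, counter, annotation and use of strand nothing is given in the sources used here. The authors deposited whole-number read counts per gene, not normalized. All 18 columns matched a sample, and gene symbols and exons came from GENCODE M21.

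Counts were tested in R 4.3.3 with edgeR 4.0.16 (quasi-likelihood test, TMM scaling, limma 3.58.1 beneath it) in 1 fit of all 18 libraries, after a filter on low counts (filterByExpr, minimum count 10 and total 15) that kept 16740 genes. P-values were Benjamini-Hochberg adjusted over those genes, with 0.05 as the threshold, and SEs were derived from each log2 change and its F statistic (change over root F). No 2 libraries of a group agreed within sampling noise (lowest chi-square per degree of freedom 15.5). Alternatives were other size factors (RLE), library totals alone, DESeq2 1.42.0, no filter, the 12 libraries of the groups compared, the run of label numbers (1 to 6, 9 to 14, 17 to 22) as a covariate, and leaving out each library.

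Members, substrate classes, marker and partner lists were chosen with earlier results of these data known. Genes named were, per comparison, the 10 largest rises and 10 largest falls among called members with a mean of at least 5 CPM and groups that do not overlap, the member of each class highest per kb, and a list of transporters known in macrophages. Any other member named was chosen after its values were seen. A few items are not reported here and were left out of the lists. Tables and figures were made with Python 3.11.15, pandas 2.3.3, numpy 2.4.6 and matplotlib 3.10.9.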

Additional observations from a re-analysis of the deposited data

Results flagged for a closer look

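In groups of 6 libraries, 1 library stood far from the other 5 in 17 of 186 groups of values examined, for 61 named Slc genes and the share of counts taken by the members, where chance gives about 5%. Of these, 9 were metformin replicate 22. It was above the other metformin libraries for the chloride exporter Slc12a5 (46.2 CPM, others 16.4 to 21.9), the calcium exchanger Slc24a3 (53.4, others 19.6 to 31.6), the arginine sensor Slc38a9 (27.7, others 17.2 to 18.997), the cystine carrier chain Slc3a1 (10.4, others 5.26 to 6.45), the bicarbonate carrier Slc4a8 (17.2, others 6.63 to 10.5), the vesicular carrier Slc6a17 (21.1, others 9.38 to 12.9), the glycine carrier Slc6a5 (28.9, others 11.3 to 13.3) and the D-serine carrier Slc7a10 (13.03 CPM, others 3.50 to 5.58). It was below them for the lactate carrier Slc16a1 (20.2 CPM, others 31.1 to 36.7).

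Control EAE replicate 10 was below the other control EAE libraries for Slc10a3 (15.02 CPM, others 32.5 to 40.6), the ADP/ATP carrier Slc25a5 (122, others 149 to 158) and the lysosomal nucleoside carrier Slc29a3 (152 CPM, others 292 to 367). Control EAE replicate 1 was below its group for the acetyl-CoA carrier Slc33a1 (14.04 CPM, others 21.3 to 24.9) and control EAE replicate 9 for Slc7a5 (45.7 CPM, others 57.1 to 63.8). Healthy replicate 3 was above its group for the peptide carrier Slc15a3 (222 CPM, others 159 to 180.1), the zinc importer Slc39a1 (146, others 98.6 to 115) and the taurine carrier Slc6a6 (442 CPM, others 287 to 334).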

How the results depend on the processing

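Scaling by library totals alone moved the counts of members called the most, to 28 higher in control EAE against healthy, 78 higher and 8 lower in metformin against control EAE, and 31 higher and 68 lower in metformin EAE against healthy. It turned the change of Slc25a5 (-0.11), Slc35c2 (-0.26), Slc37a2 (-0.34) and Slc52a2 (-0.12) in control EAE against healthy and of Slc52a2 (0.0058) in metformin against control EAE. In metformin against control EAE, the 12 libraries of the 2 groups gave 15 higher and 13 lower, where fewer samples set the spread and the 15 named genes whose calls ended moved by at most 0.009, and no filter gave 15 lower, and the cause was not tested. DESeq2 gave 64 higher and 77 lower, 37 and 25, and 51 and 48 in the 3 comparisons. Leaving out 1 library at a time gave 61 to 73 higher and 70 to 77 lower in control EAE against healthy, 21 to 35 and 13 to 25 in metformin against control EAE, and 43 to 58 and 33 to 55 in metformin EAE against healthy. Among 61 named genes, leaving out 1 library ended a call 3 times in control EAE against healthy, 77 times in metformin against control EAE and 33 times in metformin EAE against healthy. No paired analysis was possible because the groups share no replicate numbers from which to match single libraries. The label numbers do form 3 runs (1 to 6, 9 to 14 and 17 to 22), each with 2 libraries of every group, and the labels do not say whether a run is a batch. A fit with the run as a block gave 66 higher and 76 lower, 38 and 26, and 51 and 49 in the 3 comparisons, and among the named genes it added the call of Slc46a3 in metformin against control EAE (0.45) and ended none. Members near the minimum sum average 100 counts per library, where counting error adds to the spread, and whole-gene counts cannot separate isoforms.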
